A study of Mus musculus with 20 samples.

Results

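The average effect of miR-34a loss on the mouse hippocampus was examined in all 20 of 20 libraries of the study, by setting the 10 miR-34a knockout mice (miR34a-/-, KO) against the 10 wild-type mice (miR34a+/+, WT), with an amyloid transgene as the second factor and each background given equal weight. The count table lists 39056 genes, of which 28691 were detected in 1 or more mice and 16107 passed the filter on low counts and were tested. The 4 groups held 5 female C57BL/6 mice each, aged 12 to 13 months: WT Non-Tg, KO Non-Tg, WT Tg-SwDI and KO Tg-SwDI. The KO mice lacked miR-34a constitutively in the whole body, and Tg-SwDI mice carried human APP with the Swedish, Dutch and Iowa mutations under the Thy1 promoter, which is active mainly in neurons. The groups came from crosses of the KO and Tg-SwDI lines, were given no study treatment, and had gone through behavioural testing. The left hippocampus was taken under ketamine and xylazine anaesthesia. Each library was 1 mouse, so the spread between libraries includes that between animals. The comparison asks what loss of miR-34a did to hippocampal RNA in the same direction whether or not amyloid was made.

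MicroRNAs are short RNAs that guide Argonaute proteins to messenger RNAs, mostly through pairing of their seed (bases 2 to 8) with the 3'UTR, which lowers the stability and translation of the target. The miR-34 family is known as a target of p53, and miR-34a is its most abundant member in the adult brain. Known targets include SIRT1, BCL2, NOTCH1, AXL and cell cycle genes, and a gene that is directly repressed is one that may be higher when the microRNA is missing. The mature sequences are shown because the seed, in capitals, is what defines a candidate target, and because miR-34b, which the KO mice keep, has the same seed (RefSeq, GRCm38.p6; miR-34a at chr4:150068473-150068494 on the plus strand, miR-34b at chr9:51103610-51103632 on the minus strand).
miR-34a-5p: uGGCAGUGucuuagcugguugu
miR-34b-5p: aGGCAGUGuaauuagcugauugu
Pairing with this seed needs the letters CACTGCC in the RNA strand of a 3'UTR (7mer-m8), and the stronger 8mer is CACTGCCA. Of 14708 genes tested that had an annotated 3'UTR in GENCODE M21 (mm10, the longest 3'UTR of each gene), 6.03% held an 8mer and 17.3% a 7mer-m8 or an 8mer. Among the 13 genes that passed the test of the average effect, described below, 5 held an 8mer: Axl, Vat1 and Csf1r, which were higher in KO mice, and Acot11 and Lman2l, which were lower. The 8mers of 4 of these genes are given 5' to 3' with 14 bases before them and with the match in capitals.
Axl (chr7:25758611-25758618, minus strand, base 44 of a 3'UTR of 1389 bases): ggacccaagctaggCACTGCCA
Vat1 (chr11:101459336-101459343, minus strand, base 850 of 1448): cctccccagtccaaCACTGCCA
Acot11 (chr4:106747082-106747089, minus strand, base 1240 of 3774): ggctgctcttctccCACTGCCA
Lman2l (chr1:36422737-36422744, minus strand, base 1617 of 2296): gttgagatgactctCACTGCCA
These matches are descriptions of the sequence, and binding was not measured.

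The labels were checked first. Mir34a itself was not analysed here. Thy1, whose promoter drives the transgene, was read in CPM (reads per 1000000 reads on genes, after TMM scaling). It lay at 685 to 769 CPM in the 10 mice without the transgene. With the transgene it was at 1905 to 2328 CPM in WT and at 2454 to 3318 CPM in KO mice. Every KO Tg-SwDI mouse was thus above every WT Tg-SwDI mouse, where 3.16% of all genes were apart in one direction or the other. The part of this difference in the KO effects of Tg-SwDI mice was not tested. Xist was at 326 CPM or more in all 20 mice. All 12 listed genes of hippocampal fields and all 12 neuron genes passed the filter on low counts. So did all 8 listed striatum and all 9 thalamus genes, so passing the filter cannot check the tissue label. Library totals were 19549622 to 21066868 reads on genes. A single library stood apart: KO Tg-SwDI replicate 8 had a TMM factor of 0.901 against 0.981 to 1.03 in the other 19, and 161690 CPM on the 13 mitochondrially encoded genes against at most 89172 CPM in the other KO Tg-SwDI mice. Genes of the choroid plexus, a tissue next to the hippocampus, differed between libraries. Ttr was above 1000 CPM in 11 mice. These were 3 of 5 WT Non-Tg, 0 of 5 KO Non-Tg, 4 of 5 WT Tg-SwDI and 4 of 5 KO Tg-SwDI mice. The parts of dissection and of genotype in this difference were not tested. In bulk tissue, fewer cells of a type and less RNA per cell cannot be told apart.

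Few genes passed the test of the average effect. There were 13 with an adjusted p under 0.05 by the quasi-likelihood test of edgeR, adjusted over the 16107 genes by the Benjamini-Hochberg method, which is 0.0807% of them. Of these, 7 were higher in KO mice (Ciart, Axl, Vat1, Bhlhe41, Apcdd1, Dbp and Csf1r; 0.0435% of genes) and 6 were lower (Rbm28, Cbs, Mical2, Fn3k, Acot11 and Lman2l; 0.0373%). All 13 are protein-coding and lie on 8 chromosomes, and their average changes were small, from 0.16 to 0.45 on the log2 scale in size. At an unadjusted p under 0.05, 1500 genes (9.31%) stood out, 759 higher (4.71%) and 741 lower (4.6%).

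All 13 genes had the same sign in both backgrounds, and in all 13 the change was larger in Tg-SwDI mice. Their sign in the 2 backgrounds is partly fixed by the choice, since a gene with opposite effects averages toward 0. Their p-values in Non-Tg mice are partly fixed as well. At a given spread, a gene with a smaller change in Tg-SwDI mice needs a larger one in Non-Tg mice to pass. The values of the higher and the lower genes in Non-Tg mice are therefore given as descriptions. Of the 7 higher genes, 0 had an unadjusted p under 0.05 in Non-Tg mice alone, where 8.08% of all genes did, and their log2 fold changes ran from 0.00 to 0.13 there and from 0.31 to 0.80 in Tg-SwDI mice. The 6 lower genes all had an unadjusted p under 0.05 in Non-Tg mice, with log2 fold changes from -0.25 to -0.10, against -0.31 to -0.21 in Tg-SwDI mice. Among the 13, the difference between the backgrounds had an adjusted p under 0.05 for Ciart and Csf1r, where 0.608% of all genes had one. Tested in 1 background at a time, 0 genes passed the adjusted p in Non-Tg mice (1302 had an unadjusted p under 0.05) and 320 (1.99%) in Tg-SwDI mice, among them 12 of the 13.

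**Figure D1:**
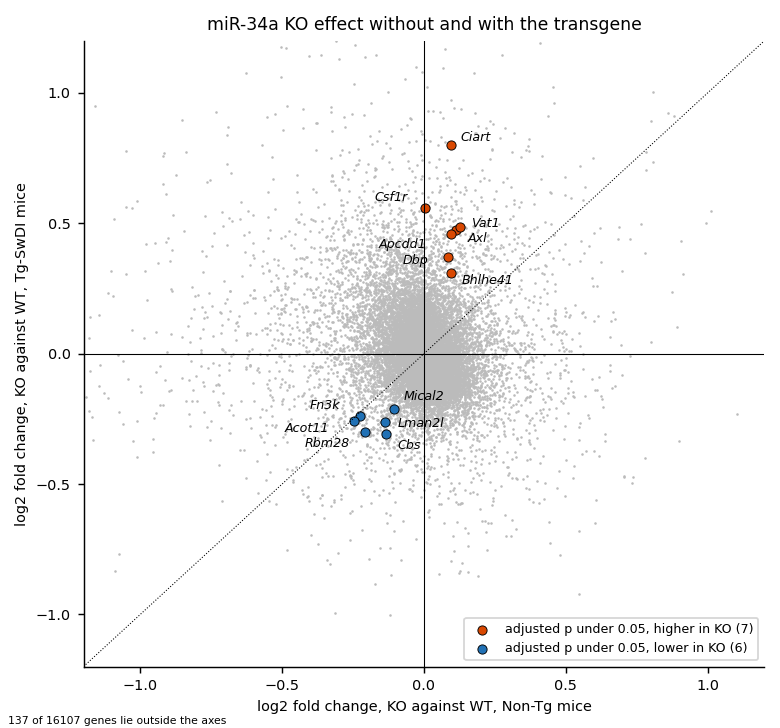
Each grey point is 1 of the genes tested, with its log2 fold change (KO against WT) in Non-Tg mice on the x axis and in Tg-SwDI mice on the y axis; orange and blue points are the 7 higher and 6 lower genes called for the average effect, and the dotted line marks equal effects. The higher genes sit near 0 on the x axis and high on the y axis, the lower genes sit closer to the line, and the cloud leans from upper left to lower right.

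Across all genes, the KO effects in the 2 backgrounds did not run together. Of the 16107 genes, 6801 (42.2%) had the same sign in both and 9306 had opposite signs, and Spearman's correlation of the log2 fold changes across genes was -0.16, or -0.33 among the 6058 genes with a mean log2 CPM of at least 5, of which 37.3% had the same sign. Genes are not independent replicates, and the 2 comparisons share no mice. At an unadjusted p under 0.05 in both backgrounds, 61 genes (0.379%) had the same sign, 22 higher (0.137%) and 39 lower (0.242%), whereas 223 (1.38%) had opposite signs, 111 of them higher (0.689%) and 112 lower (0.695%) in KO Tg-SwDI mice. With the choroid plexus level of each library as a covariate the opposite group shrank to 74 genes and the correlation to -0.01. The correlation was -0.07 with GC and length trends removed and -0.04 without the filter on low counts. It was -0.09 with the replicate number as a block and -0.20 with a mean CPM of at least 1. Leaving out 1 mouse gave -0.22 to -0.11. No gene passed when the larger of its 2 p-values was adjusted over all genes (lowest adjusted value 1).

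Of the 7 higher genes, 3 belong to the circadian clock, in which CLOCK and BMAL1 (Arntl) switch on genes through E-boxes and their products feed back. Ciart, also called Chrono, which represses CLOCK and BMAL1, was the gene with the largest change (chr3:95878503-95882251). Without the transgene it was at 11.7, 13.3, 13.5, 13.6 and 14.3 CPM in the KO mice and at 10.4, 12.3, 12.3, 13.2 and 13.9 CPM in the WT mice, so the groups overlapped. With the transgene it was at 15.9, 16.97, 17.3, 18.2 and 19.3 CPM in the KO mice and at 8.89, 9.13, 10.1, 11.1 and 11.1 CPM in the WT mice, with every KO mouse above every WT mouse, a separation that 3.16% of all genes had in one direction or the other in Tg-SwDI mice and 2.23% in Non-Tg mice. The average log2 fold change was 0.45 ± 0.06 (SE, 10 against 10 mice; edgeR adjusted p = 0.000859), made up of 0.10 without and 0.80 with the transgene, a difference of 0.70 (edgeR adjusted p = 0.0146).

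Dbp, a transcription factor that carries the clock to its output genes (chr7:45705088-45710203), was at 60.7, 64.7, 65.8, 66.4 and 67.1 CPM in KO Tg-SwDI mice and at 45.6, 46.9, 49.1, 49.96 and 59.3 CPM in WT Tg-SwDI mice. In Non-Tg mice it was at 54.2, 55.9, 57.5, 57.5 and 60.8 CPM in KO and at 48.98, 51.6, 54.1, 56.7 and 57.95 CPM in WT mice. The groups were apart with the transgene and overlapped without it, and the average log2 fold change was 0.23 ± 0.04 (edgeR adjusted p = 0.0347). Bhlhe41, also called Dec2, a repressor in the same loop (chr6:145858243-145865558), was at 73.2, 79.3, 84.3, 85.9 and 88.9 CPM in KO and 64.3, 65.4, 66.01, 66.4 and 70.2 CPM in WT Tg-SwDI mice. Its Non-Tg values were 55.98 to 62.5 CPM in KO and 53.5 to 59.3 CPM in WT mice, and its average log2 fold change was 0.20 ± 0.04 (edgeR adjusted p = 0.0206). Both were again higher in every KO Tg-SwDI mouse, with smaller steps in Non-Tg mice (0.09 and 0.10) than in Tg-SwDI mice (0.37 and 0.31).

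The list of clock genes was chosen with earlier results of these data known. Of its 16 members, 3 passed the test, all higher, where 0.0807% of all genes passed. With Per1, 4 had an unadjusted p under 0.05, where 9.31% of all genes did. In both backgrounds 9 had the same sign, 7 of them higher, where 42.2% of all genes had the same sign. The list's median log2 fold change was 0.06 on average, 0.04 without and 0.11 with the transgene, beside 0.00 for all genes in each case. Among the members that did not pass, the activators Arntl (-0.08), Clock (0.02) and Npas2 (0.03) stood near 0, as did Cry2 (0.04) and Hlf (-0.03). Per1 (0.21), Per2 (0.17) and Nr1d1 (0.16) had positive values with standard errors of 0.08, 0.11 and 0.11. The time of day at which each mouse was killed is not given in the sources used here, and its part in these values was not tested. The E-box CACGTG, a palindrome and so the same on both strands, was found in the promoter window (250 bases before to 50 after the start; RefSeq, GRCm38.p6) of Ciart and Bhlhe41, and not in that of Dbp. It was present in 5 of 14 clock genes with a window (Ciart, Bhlhe41, Per1, Cry1 and Tef, the last 2 with average changes of 0.09 and 0.03) and in 11.1% of the 12054 genes tested that had one. The matches of both genes are shown because Ciart holds 3 of them in a short stretch, on the minus strand and 116, 58 and 44 bases before the start.
Ciart, chr3:95882339-95882344: catctagagtCACGTGttgccggtaa
Ciart, chr3:95882281-95882286: cagggggaggCACGTGcagaaccgca
Ciart, chr3:95882267-95882272: tgcagaaccgCACGTGtctgggaggg
Bhlhe41, chr6:145865568-145865573, minus strand, 153 bases before the start: gtacgttccgCACGTGagctgggtgc

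Axl and Csf1r are receptor tyrosine kinases listed as published miR-34a targets, and both carry an 8mer. Axl, a member of the TAM family that binds GAS6 and serves the clearance of dying cells by microglia (chr7:25757273-25788705), was at 100.5, 105, 114, 117 and 123 CPM in KO and at 77.3, 78.2, 79.1, 80.4 and 87.6 CPM in WT Tg-SwDI mice. In Non-Tg mice it was at 57.1, 57.7, 60.95, 63.4 and 67.7 CPM in KO and at 49.99, 53.3, 55.6, 60.00 and 64.7 CPM in WT mice. All 5 KO mice lay above all 5 WT mice with the transgene, and the groups overlapped without it, with log2 fold changes of 0.48 and 0.11. The average was 0.30 ± 0.05 (edgeR adjusted p = 0.00771).

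Csf1r, the receptor for CSF1 and IL-34 on which microglia depend for survival, is a case of an average carried by 1 background. It was at 257, 267, 272, 277 and 307 CPM in KO and 162, 192, 193, 193 and 196 CPM in WT Tg-SwDI mice. In Non-Tg mice it was at 94.3, 103, 105, 109 and 115 CPM in KO and 91.00, 96.8, 101, 105 and 131 CPM in WT mice, with the KO range inside the WT range. The log2 fold change was 0.56 with and 0.00 without the transgene, a difference of 0.56 (edgeR adjusted p = 0.0199), and the average of 0.28 ± 0.05 passed narrowly (edgeR adjusted p = 0.0448). With the choroid plexus level as a covariate its average was as large, 0.29, with an edgeR adjusted p of 0.0737.

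Both receptors are expressed by microglia, and the values of the microglial lists stand beside theirs. The 16 homeostatic genes summed to 1675 to 2085 CPM in KO and 1285 to 1556 CPM in WT Tg-SwDI mice, and to 585 to 627 CPM in KO and 583 to 784 CPM in WT Non-Tg mice. Of these 16 genes, 1 (Csf1r) passed the average test and 3 had the same sign in both backgrounds (median log2 fold change 0.11 on average, -0.10 without and 0.31 with the transgene). Selplg, the ligand of P-selectin, had -0.10 without and 0.39 with the transgene. Of 22 disease-associated microglial genes, 1 (Axl) passed and 3 had the same sign in both (median 0.07 on average, -0.23 without and 0.40 with the transgene), and Ctsb, the protease cathepsin B, had -0.09 and 0.29. Of 35 interferon-stimulated genes tested, 0 passed the average test, 5 had the same sign in both, and the median was 0.38 on average, -0.24 without and 0.95 with the transgene. Summed, the 35 genes were at 311 to 764 CPM in KO and 279 to 349 CPM in WT Tg-SwDI mice, so the ranges overlapped. Over all genes, 0.0807% passed the average test and 42.2% had the same sign in both. At an unadjusted p under 0.05 on average, 4 of the 16 homeostatic, 8 of the 22 disease-associated and 10 of the 35 interferon-stimulated genes were higher. None of the 3 lists had a member lower at that p, and over all genes 4.71% were higher and 4.6% lower. Ifit2, an antiviral RNA-binding protein, had 0.02 and 0.56, and Eif2ak2, the double-stranded RNA sensor PKR, 0.08 and 0.68. For Ifit2, KO Tg-SwDI replicate 8 was at 9.09 CPM, within the WT Tg-SwDI range of 8.74 to 10.8 CPM. For Eif2ak2 it was at 7.49 CPM, within 6.92 to 9.53 CPM. The other KO Tg-SwDI mice were at 15.3 to 17.0 and 12.1 to 14.6 CPM. The part of microglial RNA in the values of Axl and Csf1r was not tested.

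Vat1, an oxidoreductase-like protein of vesicle and mitochondrial membranes (chr11:101458745-101466230), and Apcdd1, a membrane inhibitor of Wnt signalling on chromosome 18, completed the higher genes. Vat1 was at 50.1, 50.3, 51.4, 52.2 and 58.8 CPM in KO and 35.5, 35.6, 37.1, 38.1 and 41.2 CPM in WT Tg-SwDI mice, and at 37.1, 38.4, 40.9, 42.2 and 42.3 CPM in KO and 31.4, 34.4, 34.9, 38.02 and 44.96 CPM in WT Non-Tg mice. The groups were apart with the transgene and overlapped without it, and the average log2 fold change was 0.31 ± 0.05 (edgeR adjusted p = 0.0145). Apcdd1 was at 31.95 to 39.3 CPM in KO and 24.2 to 29.9 CPM in WT Tg-SwDI mice, at 25.8 to 32.2 CPM in KO and 26.3 to 29.9 CPM in WT Non-Tg mice, with an average of 0.28 ± 0.05 (edgeR adjusted p = 0.0206). When libraries were scaled by their totals alone, the split of calls was 3 higher and 7 lower in place of 7 and 6.

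**Figure D2:**
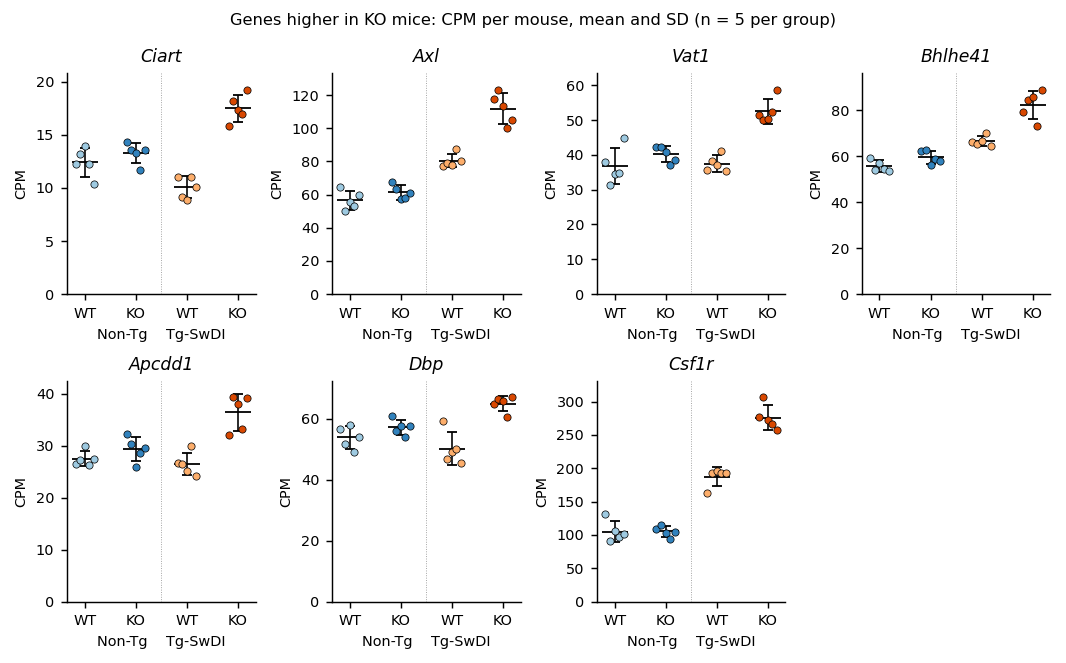
CPM of the 7 genes higher in KO mice, 1 point per mouse, by genotype and transgene, with the mean and SD of each group (n = 5). In each panel the 5 KO Tg-SwDI mice lie above the 5 WT Tg-SwDI mice, and the Non-Tg groups overlap. Over all genes, 3.16% were apart in Tg-SwDI mice and 2.23% in Non-Tg mice, in one direction or the other. The 7 genes were chosen by a test on these same mice, so the separation is partly fixed.

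The changes of the 6 lower genes were more alike in the 2 backgrounds than those of the 7 higher genes. This is a description, since it is partly fixed by how the genes were chosen. Rbm28, a nucleolar RNA-binding protein of ribosome assembly (chr6:29123576-29165006), had the lowest adjusted p of the 6. Without the transgene it was at 32.4, 32.5, 35.1, 35.5 and 37.7 CPM in KO and at 38.03, 39.4, 40.3, 40.4 and 41.99 CPM in WT mice. With the transgene it was at 32.6, 33.6, 34.9, 35.7 and 35.9 CPM in KO and at 41.9, 42.6, 42.7, 42.8 and 42.9 CPM in WT mice. Every one of the 10 KO mice lay below every one of the 10 WT mice, from 32.4 to 37.7 against 38.0 to 42.9 CPM, and it was the 1 gene of all tested (0.00621%) with no overlap between the 10 and the 10. Its log2 fold change was -0.26 ± 0.03 on average (edgeR adjusted p = 0.000859), -0.21 without and -0.30 with the transgene, and the difference of -0.09 had an edgeR adjusted p of 0.503. Another gene, making 2 in all (0.0124%), kept KO and WT mice apart in the same direction within each background: Slc25a44, a mitochondrial carrier of branched-chain amino acids, named after its values were seen, which was higher by 0.14 ± 0.04 on the log2 scale and did not pass (edgeR adjusted p = 0.195). Another 11 genes (0.0683%) were kept apart in both backgrounds in opposite directions.

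Fn3k and Acot11 had nearly equal changes in both backgrounds. Fn3k, a kinase that removes sugar adducts from proteins (chr11:121434913-121450491), was at 18.1, 18.3, 19.3, 20.2 and 20.3 CPM in KO and 20.98, 22.7, 22.8, 22.9 and 23.1 CPM in WT Non-Tg mice. In Tg-SwDI mice it was at 14.9, 16.5, 17.2, 17.7 and 18.9 CPM in KO and 18.5, 20.4, 20.4, 20.7 and 20.9 CPM in WT mice. The Non-Tg groups were apart and the Tg-SwDI groups overlapped in their ends, with log2 fold changes of -0.23 and -0.24 and an average of -0.23 ± 0.04 (edgeR adjusted p = 0.0347). Acot11, a thioesterase that releases fatty acids from coenzyme A (chr4:106744555-106804998), was at 34.9, 36.2, 37.7, 38.7 and 40.97 CPM in KO and 40.6, 43.1, 44.1, 44.4 and 51.5 CPM in WT Non-Tg mice. In Tg-SwDI mice it was at 37.1, 39.3, 44.8, 46.2 and 49.5 CPM in KO and 49.95, 50.4, 51.2, 51.8 and 56.1 CPM in WT mice. Its changes were -0.25 and -0.26, averaging -0.25 ± 0.05 (edgeR adjusted p = 0.0473), with KO and WT mice apart in Tg-SwDI and touching by 1 KO mouse in Non-Tg mice.

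The other 3 lower genes had somewhat larger values with the transgene. Cbs, the enzyme that joins homocysteine to serine (chr17:31608894-31637238), was at 23.2 to 26.1 CPM in KO and 24.4 to 28.9 CPM in WT Non-Tg mice, and with the transgene at 23.5 to 24.4 CPM in KO and 27.1 to 31.3 CPM in WT Tg-SwDI mice. Its average was -0.22 ± 0.04 (edgeR adjusted p = 0.0206). Mical2, an oxidoreductase that takes actin filaments apart (chr7:112225856-112413106), was at 348 to 358 CPM in KO and 348 to 398 CPM in WT Non-Tg mice, and with the transgene at 279 to 310.1 CPM in KO and 329 to 354 CPM in WT Tg-SwDI mice, with an average of -0.16 ± 0.03 (edgeR adjusted p = 0.0347). Lman2l, a lectin of the early secretory path (chr1:36419871-36445271), was at 46.6 to 52.1 CPM in KO and 49.3 to 60.2 CPM in WT Non-Tg mice, and with the transgene at 42.8 to 46.6 CPM in KO and 48.03 to 56.3 CPM in WT Tg-SwDI mice, with an average of -0.20 ± 0.04 (edgeR adjusted p = 0.0473). All 3 kept KO below WT mice in Tg-SwDI mice and overlapped in Non-Tg mice. With the choroid plexus level as a covariate the averages were -0.22 for Fn3k, -0.24 for Acot11, -0.20 for Lman2l and -0.24 for Rbm28, close to those without it. The adjusted p was then 0.0822 for Fn3k, 0.0954 for Acot11 and 0.0822 for Lman2l in edgeR, and 0.00357 for Rbm28. Exons of Vat1, Bhlhe41, Dbp, Csf1r, Acot11 and Lman2l overlap those of a gene on the other strand by 1.4% to 20.9% of their bases, and whether the counting used strand is not given in the sources used here.

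**Figure D3:**
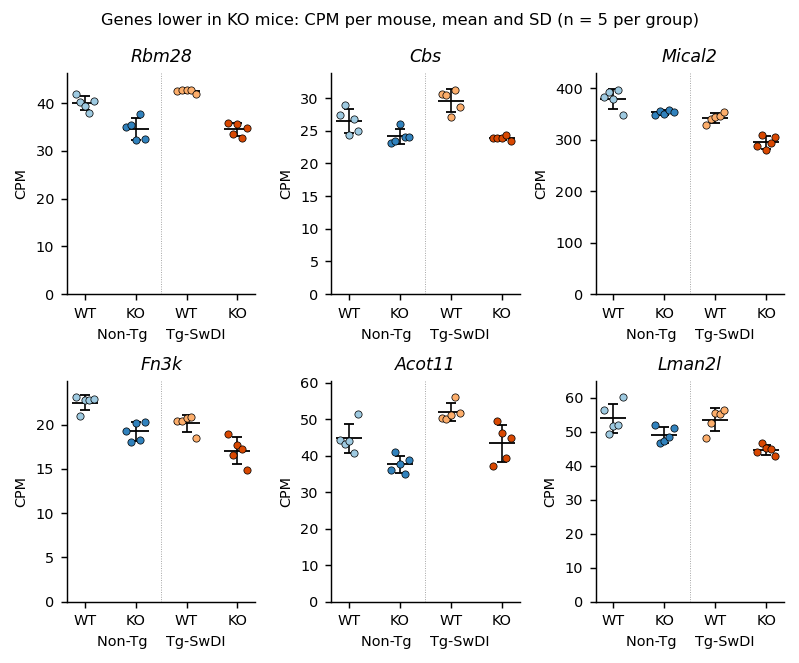
CPM of the 6 genes lower in KO mice, 1 point per mouse, by genotype and transgene, with the mean and SD of each group (n = 5). Rbm28 is lower in all 10 KO mice than in any WT mouse, and in the other panels KO and WT mice are apart in at most 1 background. Over all genes, 3.16% were apart in Tg-SwDI mice and 2.23% in Non-Tg mice, in one direction or the other. These genes too were chosen by a test on the same mice.

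Ranked by the larger of the 2 within-background p-values, the leading genes with the same sign in both were Rbm28, Fn3k and Acot11, followed by 7 that did not pass the average test. Of these 7, Hsp90b1 (GRP94), a chaperone of secreted proteins, was at 221, 238, 241, 241 and 244 CPM in KO and 248, 259, 272, 273 and 288 CPM in WT Non-Tg mice. In Tg-SwDI mice it was at 214, 242, 245, 255 and 276 CPM in KO and 263, 273, 290.0, 296 and 314 CPM in WT mice. The groups were apart without the transgene and overlapped with it, and the average was -0.20 ± 0.04 (edgeR adjusted p = 0.07704). Pdia6, a disulfide isomerase, had -0.21 and -0.27 (average -0.24 ± 0.05, edgeR adjusted p = 0.0893).

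The remaining genes of this ranking had other roles. Lss, the lanosterol synthase of cholesterol synthesis, had 0.20 and 0.19 (edgeR adjusted p = 0.07704), Mfap3l 0.21 and 0.26 (0.09998), and Slc5a3, which imports myo-inositol, -0.26 and -0.29 (0.1595). 2810002D19Rik, a processed transcript at 2.03 to 2.58 CPM in KO and 3.59 to 4.35 CPM in WT Non-Tg mice, had -0.71 and -0.56 (edgeR adjusted p = 0.0776). Mid1-ps1 is uncertain: it is a pseudogene copy of Mid1 annotated on the Y chromosome, the mice were female, and how its 1 to 21 reads per mouse were kept apart from those of Mid1 is not given in the sources used here. Just outside the threshold, 10 genes had an adjusted p from 0.05 to 0.1.

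**Figure D4:**
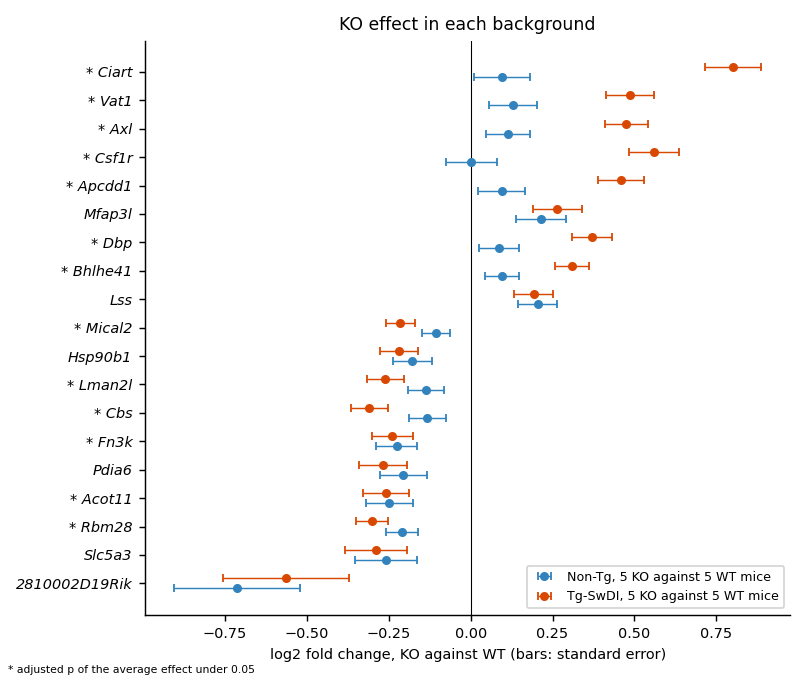
Log2 fold change of KO against WT mice (x axis, bars are standard errors) in Non-Tg (blue) and Tg-SwDI mice (orange) for the 13 genes called for the average effect (stars) and the uncalled genes ranked highest for both backgrounds, with Mid1-ps1 left out. The blue and orange points of Fn3k, Acot11, Lss, Pdia6 and Hsp90b1 lie close together, whereas those of Ciart and Csf1r lie far apart.

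Heat shock and chaperone genes had negative medians in both backgrounds. Of the 10 tested, 0 passed, 5 had an unadjusted p under 0.05, all lower (4.6% of all genes were lower at that p), and 7 had the same sign in both, all lower, with a median of -0.09 on average, -0.09 without and -0.07 with the transgene. Hsph1, a nucleotide exchange factor for HSP70, had -0.18 ± 0.04 (edgeR adjusted p = 0.106), Hsp90aa1, the inducible cytosolic HSP90, -0.13 ± 0.04 (0.223), and Hspa5, the chaperone BiP of the endoplasmic reticulum, -0.25 ± 0.08 (0.387). The stress-induced Hspa1a and Hspa1b stood at 0.05 and -0.02. Summed over the list, KO mice were at 2882 to 3109 CPM and WT mice at 3070 to 3319 CPM without the transgene, and at 2804 to 3181 against 2977 to 3374 CPM with it, so the ranges overlapped in both.

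Averaged over both backgrounds, genes with a seed site had slightly higher values than genes without one. The 887 genes tested with an 8mer had a median average log2 fold change of 0.0097, and 56.8% of them were above 0, beside -0.0014 and 49.2% for the 12159 genes with no 7mer-m8 or 8mer. Of the 8mer genes, 3 were called higher and 2 lower, and at an unadjusted p under 0.05 the shares were 6.54% higher and 3.95% lower, against 4.49% and 5.01% without a site. The 2549 genes with either site gave nearly the same values (median 0.0091, 56.1% above 0, 6.12% higher and 3.45% lower). In Non-Tg mice the median of the 8mer genes was 0.023 and that of genes without a site -0.0078. In Tg-SwDI mice these medians were 0.0003 and 0.0034, so the higher values of genes with a site were not shared by both backgrounds. The genes were not matched for the length or base composition of the 3'UTR.

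Of 36 published targets listed, all tested, 2 passed (Axl and Csf1r, both higher), where 0.0807% of all genes did. Including these, 4 had an unadjusted p under 0.05, where 9.31% of all genes did, and 13 had the same sign in both backgrounds, with a median of 0.02 on average, 0.01 without and 0.03 with the transgene. The list was drawn up with earlier results for both genes in these mice known, so they are no independent evidence of its direction. Cd44, the hyaluronan receptor, had -0.16 without and 0.59 with the transgene, and Ccnd1, cyclin D1, 0.11 and 0.13. The best-known targets stood near 0 on average: Sirt1 -0.03 ± 0.05, Bcl2 0.04 ± 0.05, Notch1 0.01 ± 0.05 and Cdk6 0.05 ± 0.10. Of 20 p53 targets 0 passed and 0 had an unadjusted p under 0.05 (median 0.01 on average, -0.02 without and 0.05 with the transgene), with Fas at 0.27 and Ei24 at 0.06.

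Genes beside the deleted locus were examined because a knockout carries flanking sequence with it. Of 346 genes tested within 20 Mb of Mir34a on chromosome 4, 0 passed the average test, and likewise 0 of 103 within 5 Mb and 0 of 28 within 1 Mb, with 21 higher and 12 lower at an unadjusted p under 0.05 in the widest window. These were 6.07% and 3.47% of the 346, beside 4.71% and 4.6% of all genes. The gene with the lowest p of the 6 nearest was H6pd, a dehydrogenase of the endoplasmic reticulum lying 59.4 kb away (chr4:149979475-150009023), at -0.25 without and -0.20 with the transgene (average -0.22 ± 0.07, edgeR adjusted p = 0.293). Gpr157 (18.8 kb) had -0.26, Slc2a5 (50.7 kb) -0.10, Spsb1 0.13, Eno1 -0.02 and Rere 0.02, and none of the 5 passed. Gm13067, a lincRNA gene that ends 11.5 kb before the Mir34a hairpin (chr4:150049013-150056976), was named after its values were seen and has too few reads to pass the filter. It had 4 to 10 reads in each KO and 0 to 1 in each WT Non-Tg mouse, and 3 to 11 in each KO and 0 to 3 in each WT Tg-SwDI mouse. Summed, that was 39 against 2 reads and 37 against 5 reads. In the fit without the filter it passed (edgeR adjusted p = 2.75e-05), and of the 24 genes called there (0.0836% of 28691), it was the 1 that the filter had removed.

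The other lists showed how averages were made up. The mitochondrially encoded genes had positive medians in both: of 13, 0 passed, 4 had an unadjusted p under 0.05, all higher (4.71% of all genes were), and 10 had the same sign, all higher (median 0.20 on average, 0.07 without and 0.33 with the transgene), with mt-Nd3 at 0.21 ± 0.05 and mt-Co1 at 0.20 ± 0.07. Without KO Tg-SwDI replicate 8 the median of the average was 0.07, and mt-Co1 was at 0.12. The 15 choroid plexus genes had negative values on average without passing (median -1.55 on average, -2.99 without and -0.14 with the transgene, 12 lower at an unadjusted p under 0.05, where 4.6% of all genes were), led by Kcne2 (-1.88) and Cldn2 (-1.77), with summed levels of 299 to 753 CPM in KO and 318 to 6987 CPM in WT Non-Tg mice and of 426 to 5713 CPM in KO and 415 to 5842 CPM in WT Tg-SwDI mice. Of 12 oligodendrocyte genes 0 passed and 4 were lower at an unadjusted p under 0.05, where 4.6% of all genes were (median -0.07 on average, -0.15 without and -0.01 with the transgene; Mal -0.13).

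Of 12 astrocyte genes, 0 passed and 4 were higher at an unadjusted p under 0.05, where 4.71% of all genes were higher and 4.6% lower (median 0.04 on average, 0.02 without and 0.05 with the transgene), among them the glutamate transporter Slc1a3 (0.10) and the bicarbonate cotransporter Slc4a4 (0.13). The 10 reactive astrocyte genes had 0 passing and 4 higher at that p, with 2 of the same sign in both (median 0.22 on average, -0.07 without and 0.47 with the transgene), and Serpina3n, a protease inhibitor of reactive glia, had -0.06 without and 0.74 with the transgene, with S1pr3 at -0.03 and 0.52. Of 14 immediate early genes 0 passed and 2 had the same sign (median 0.11 on average, -0.28 without and 0.47 with the transgene), with Npas4 at -0.82 and 0.14 and Egr4 at -0.10 and 0.50. The 12 glucocorticoid-responsive genes had 0 passing, 3 higher and 2 lower at an unadjusted p under 0.05 and 8 with the same sign (median 0.09 on average, 0.10 without and 0.12 with the transgene), with Nfkbia at 0.26.

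In the remaining lists no gene passed either. The medians of the average log2 fold change were 0.01 for 12 neuron genes (Slc17a7 0.11, Camk2a 0.11), 0.01 for 12 genes of hippocampal fields (Zbtb20 0.10, Wfs1 -0.09) and 0.03 for 8 oligodendrocyte precursor genes (Ptprz1 0.11, Olig2 0.08). They were -0.01 for 22 glutamate receptor genes (Grik2 0.11, Grm3 0.10) and 0.01 for 14 GABA receptor genes (Gabra2 -0.13, Gabrb1 0.11). Vessel genes gave 0.06 over 13 (Ly6c1 0.22, Kdr -0.31), meningeal genes 0.17 over 10 (Slc13a3 0.34, Col3a1 0.53) and red blood cell genes 0.33 over 4 (Alas2 0.43, Hbb-bs 0.61). Genes of neighbouring regions gave 0.07 over 8 for the striatum (Penk 0.28, Pde10a 0.06) and 0.00 over 9 for the thalamus (Tcf7l2 0.36, Ramp3 0.18). Without KO Tg-SwDI replicate 8 the averages were 0.05 for Slc17a7 and Camk2a, 0.03 for Olig2 and 0.12 for Ramp3.

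**Figure D5:**
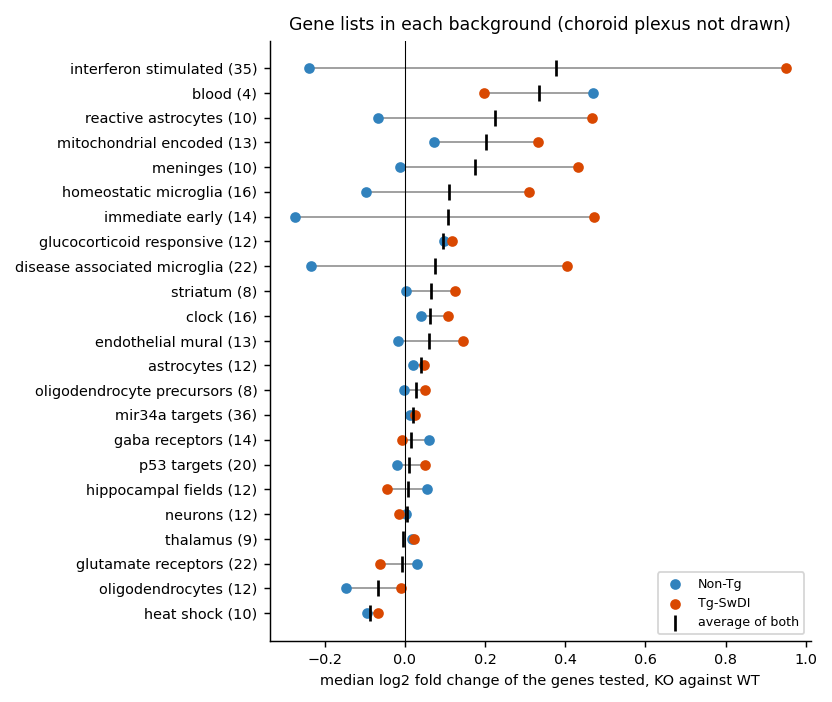
Median log2 fold change (KO against WT) of the genes of each list, with the number tested in brackets, in Non-Tg mice (blue), in Tg-SwDI mice (orange) and on average (black bar). The interferon-stimulated, immediate early, microglial and reactive astrocyte lists, among others, have a blue point below 0 and an orange point above 0. The heat shock and oligodendrocyte lists have both below 0. The mitochondrially encoded, clock, glucocorticoid-responsive, astrocyte and red blood cell lists, among others, have both above 0.

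The number of genes that passed varied with single mice and with the model. Leaving out 1 mouse at a time gave 4 to 25 genes, and DESeq2 called 57 (0.662% of the 8611 genes to which it gave an adjusted p), with Rbm28, Ciart, Axl and Vat1 called in all 20 fits that left out a mouse. The count was 25 without KO Tg-SwDI replicate 8, the library that stood apart, and these included all 13. Without WT Non-Tg replicate 6 or KO Non-Tg replicate 1 it was 4, without KO Non-Tg replicate 8 or WT Tg-SwDI replicate 5 it was 5, without WT Tg-SwDI replicate 6 it was 6, without KO Non-Tg replicate 4 it was 7 and without WT Non-Tg replicate 4 it was 8. Csf1r, Lman2l, Acot11, Mical2, Fn3k and Dbp were each called in 3 to 8 of the 20, and Cbs, Bhlhe41 and Apcdd1 in 15 to 17.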

How the data were processed

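Poly(A) RNA from the left hippocampus of 20 mice was sequenced by the authors as stranded libraries, aligned to mm10 with STAR and assigned to ENSEMBL genes with featureCounts, and the table they deposited holds raw read counts without normalization. Tool versions, the strand setting and the treatment of reads matching several genes are not given in the sources used here. Symbols came from GENCODE M21 for 38872 of 39056 identifiers (99.5%). Groups follow the genotype label of each sample. In edgeR 4.0.16 (R 4.3.3), libraries were scaled by TMM, low genes were dropped with filterByExpr (group-wise, count 10, total 15), and a robust quasi-likelihood model of the 4 group means was fitted to all 20 libraries (16 residual degrees of freedom). The average KO effect is the mean of the KO against WT contrasts in Non-Tg and Tg-SwDI mice. The contrasts in each background and their difference came from the same fit. P-values were adjusted by the Benjamini-Hochberg method over 16107 genes, with calls at 0.05. CPM are TMM-scaled and not length-corrected. Totals of 19549622 to 21066868 reads set the precision, which is poorest where few reads fell.

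The genes and lists were chosen with earlier results of these data known. Named were all called genes, the 10 genes of one sign in both backgrounds with the lowest larger p, called genes within 20 Mb of Mir34a and the 6 genes nearest to it, the 2 members of each list with the lowest p (1 such member is not reported here), and label checks. Members of lists named beyond these, Slc25a44 and Gm13067 were chosen after their values were seen. Same-numbered mice did not deviate together (2 of 16 pairs had a correlation over 0.1), so numbers were not used as pairs. No libraries of a group were duplicates. Alternatives were DESeq2 1.42.0, edgeR's likelihood ratio test, RLE factors, library size alone, no filter, a mean CPM of at least 1, an additive model, the replicate number as a block, the mean log2 CPM of the choroid plexus list as a covariate, removal of GC and length trends, no robust dispersion, and each mouse left out. The tests were tried on simulated counts with known changes before use.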

Additional observations from a re-analysis of the deposited data

Results flagged for a closer look

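Single mice stood apart from the other 4 of their group in 7 of 80 groups examined, over 20 genes. Chance alone marks about 1 in 20 groups. They were Rbm28 in WT Tg-SwDI replicate 7 (41.9 CPM, below the others), Vat1 in KO Tg-SwDI replicate 8 (58.75 CPM, above), Apcdd1 in WT Non-Tg replicate 4 (29.87 CPM, above), Fn3k in WT Non-Tg replicate 3 (20.98 CPM, below) and in WT Tg-SwDI replicate 7 (18.46 CPM, below), Csf1r in WT Tg-SwDI replicate 3 (162.5 CPM, below) and Hsp90b1 in KO Non-Tg replicate 4 (220.6 CPM, below).

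The KO effect differed between the backgrounds for 5 of the 70 named genes, by the interaction contrast in edgeR with Benjamini-Hochberg adjusted p-values (0.608% of all genes). Ciart was higher by 0.70 on the log2 scale with than without the transgene (adjusted p = 0.0146), Csf1r by 0.56 (0.0199), Selplg by 0.49 (0.0236) and Ctsb by 0.38 (0.0146), and Pde10a had a difference of -0.37 (0.0383).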

How the results depend on the processing

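The count of 13 genes, all of the same direction in both backgrounds, became 57 (53 of the same direction) with DESeq2, 33 (32) with the likelihood ratio test, 24 (23) without the filter on low counts and 1 (Rbm28) with the additive model. It was 10 to 15 with RLE factors, library size alone, a mean CPM of at least 1, the choroid plexus covariate, GC and length trends removed and no robust dispersion. Leaving out 1 mouse gave 4 to 25 genes, 4 to 23 of them of the same direction. The replicate number as a block gave 0 genes (748 with an unadjusted p under 0.05), 0 of them of the same direction. Numbers did not pair the mice: 1 of 20 correlated best with a same-numbered mouse. The 61 genes with an unadjusted p under 0.05 and the same direction in both backgrounds were 40 with the likelihood ratio test. The causes of these changes were not tested. Rbm28 was called in 30 of 31 alternatives, with adjusted p from 1.16e-08 to 0.00358 where called, and lost with the block. Ciart was called in 28 of 30 (DESeq2 gave it no adjusted p), Axl and Vat1 in 29 of 31, and Lman2l in 8 of 31. No called gene reversed. Depth limits the genes with few reads, of which the filter left Gm13067 untested.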
